A study of Gallus gallus with 30 samples.

Results

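The comparison set chicken embryos with limb buds, at Hamburger-Hamilton stages HH24 and HH27, against embryos at HH14 and HH16. Its members were fixed by the stage labels alone: 4 arrays of HH24 and HH27 and 4 of HH14 and HH16, 8 of the 30 arrays in the series. All 8 samples were wild-type chickens (Gallus gallus) of the Nera line, of mixed sex, from eggs incubated at 37.5 °C, and none was treated. Each array held RNA pooled from whole embryos from which the yolk and the amnion had been taken off, with 2 biological replicates a stage on the Affymetrix Chicken Genome Array. How many embryos went into a pool is not stated by the labels. Levels are the deposited MAS5 signals in arbitrary units, and changes are log2 of HH24 and HH27 over HH14 and HH16.

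At HH14 and HH16 the chick embryo is still adding somites at its tail end, the heart beats, and the limb buds have not grown out. By HH24 the limb buds are paddles and by HH27 the digit plates and the first cartilage models appear, while neurons, skeletal muscle, liver, lens and pigment cells differentiate across the body. A whole embryo array averages over all of these tissues. A change in signal can therefore be a change in the number of cells of a type or in the RNA per cell, and these cannot be told apart here.

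The 8 arrays were of similar quality. The median signal was 78.3 to 81.8 on the HH14 and HH16 arrays and 89.9 to 98.3 on the HH24 and HH27 arrays. Array background, the 95th percentile of probe sets for other organisms, was 28.5 to 34.8 in the early group and 32.5 to 47.2 in the late group, with HH24 replicate 1 the highest. The 3′ to 5′ ratio of the actin control was 1.64 to 1.84 in the early group and 1.76 to 1.92 in the late group. Correlations of log2 signals were 0.941 to 0.958 within a stage and 0.906 to 0.934 across the groups. The signal of the W-linked gene HINTW ran from 13070 (HH24 replicate 2) to 27180 (HH24 replicate 1), and it read 26930 and 13110 at HH14. The group means were 20330 early and 17800 late, so the pools of HH14 and of HH24 differed in it by more than the groups did. Its change was -0.19 ± 0.398 (adjusted p = 0.78 in limma). In HH16 replicate 1 genes of the yolk sac endoderm were lower than in the other HH16 array, and they are given below beside the results they touch.

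A call needed an adjusted p under 0.05 in limma together with a 2-fold change or more. Such calls were made for 2379 of 29600 tested probe sets (8.04%), of which 1845 (6.23%) rose from the early to the late group and 534 (1.8%) fell. With quantile normalization of the arrays the split was 1435 higher and 884 lower, so that 61.9% of the called probe sets were higher in place of 77.6%. Over 1 probe set for each of 12146 genes, 9.02% were called: 846 genes (6.97%) rose and 250 (2.06%) fell. All 4 late arrays lay above all 4 early ones for 742 of the 846 and below them for 203 of the 250; over all genes tested 18% and 17% separated in these directions. The median change was 1.66 among the genes that rose and -1.44 among those that fell, against 0.02 over all genes. With signals below background raised to it, 174 genes rose and 36 fell by at least 4-fold, and 44 and 12 by at least 8-fold. Of the genes that rose, 99 were not above background on any early array, and of those that fell, 25 were not above it on any late array; for these the fold is a lower bound. Where a gene had other probe sets, 720 of 793 of them moved in the same direction and 0 were called the opposite way.

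**Figure D1:**
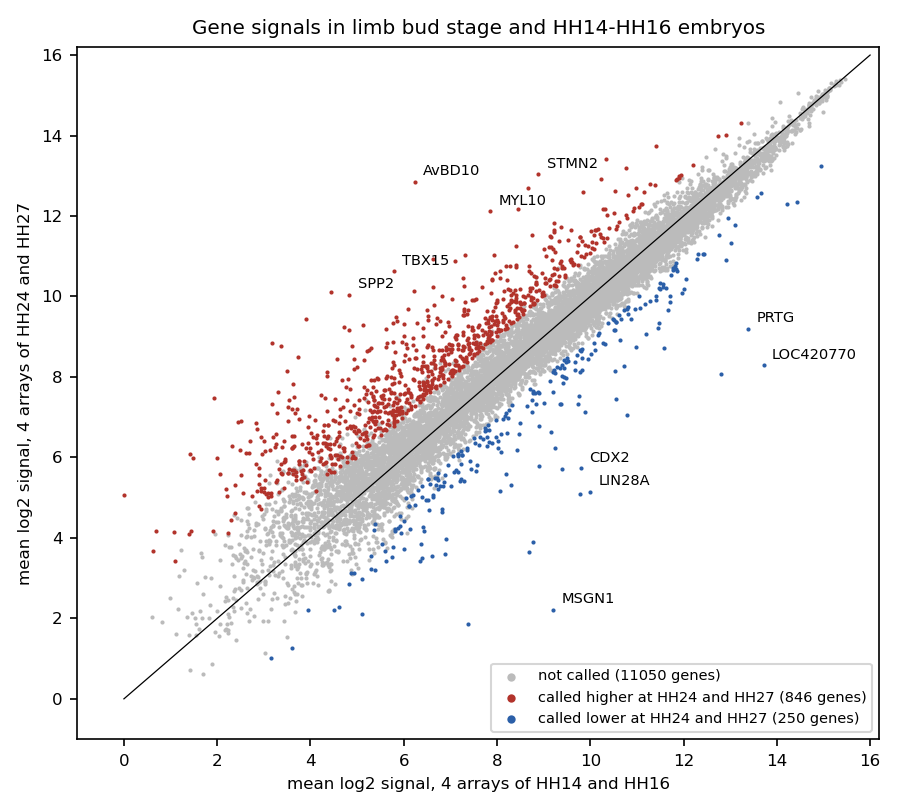
Mean log2 signal of each of 12146 genes on the 4 arrays of HH14 and HH16 (horizontal) and the 4 of HH24 and HH27 (vertical), with the line of no change. Red points are the 846 genes called higher and blue points the 250 called lower at HH24 and HH27, and AvBD10 lies farthest above the line among the bright genes.

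With signals below background raised to it, the largest rise was that of AvBD10, an avian beta-defensin, a secreted antimicrobial peptide. Its signal was 67.7 and 51.0 at HH14, 114.5 and 82.1 at HH16, 4420 and 5252 at HH24, and 10880 and 11960 at HH27. The rise was 98.2-fold (log2 6.62 ± 0.136 SE, adjusted p = 1.93e-19 in limma). Groups that do not overlap were a condition for naming it and all others of the 15 largest rises. TBX15, a T-box factor of limb and dermal mesenchyme, read 48.4 to 71.8 on the 4 early arrays, 1274 and 1451 at HH24, and 1969 and 1707 at HH27 (28.6-fold, adjusted p = 4.32e-05). MYL10, a regulatory light chain of myosin, went from 163.2 to 295.8 on the early arrays to 2551 and 3477 at HH24 and 6792 and 6443 at HH27 (19.2-fold). Both genes were low on all early arrays, and between HH24 and HH27 MYL10 was called (adjusted p = 0.00544) and TBX15 was not (adjusted p = 0.927).

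GSC, the goosecoid homeobox gene of the early organizer that later patterns head and limb mesenchyme, was below background on 3 of the 4 early arrays. It read 15.8 to 43.0 there, 490.2 and 510.7 at HH24 and 719.5 and 722.9 at HH27, at least 17.5-fold higher. OCM3, of the oncomodulin and parvalbumin family of calcium-binding proteins, read 8.65 to 37.6 early, with 3 of 4 arrays below background, and 2224 and 2256 at HH27 (at least 33.4-fold higher). DLK1, a transmembrane inhibitor of differentiation related to Notch ligands, rose from 7.52 to 56.3 early to 348.1 and 347.9 at HH24 and 944.8 and 955.3 at HH27 (at least 14.1-fold, with 1 early array below background). GPM6A, a neuronal membrane glycoprotein, rose by 4.02 on the log2 scale, from 262.5 to 565.4 early to 7767 and 8412 at HH27. The other members of the 15 largest rises by this measure, in which genes below background early enter with their lower bound, were SPP2, SNAP25, STMN2, SYT4, MATN4, the leucine-rich repeat gene LRRC17 (13.3-fold), and LOC415661 and LOC107055364, which were below background on all 4 early arrays and are named here by identifier (at least 21.7-fold and 14.6-fold higher).

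**Figure D2:**
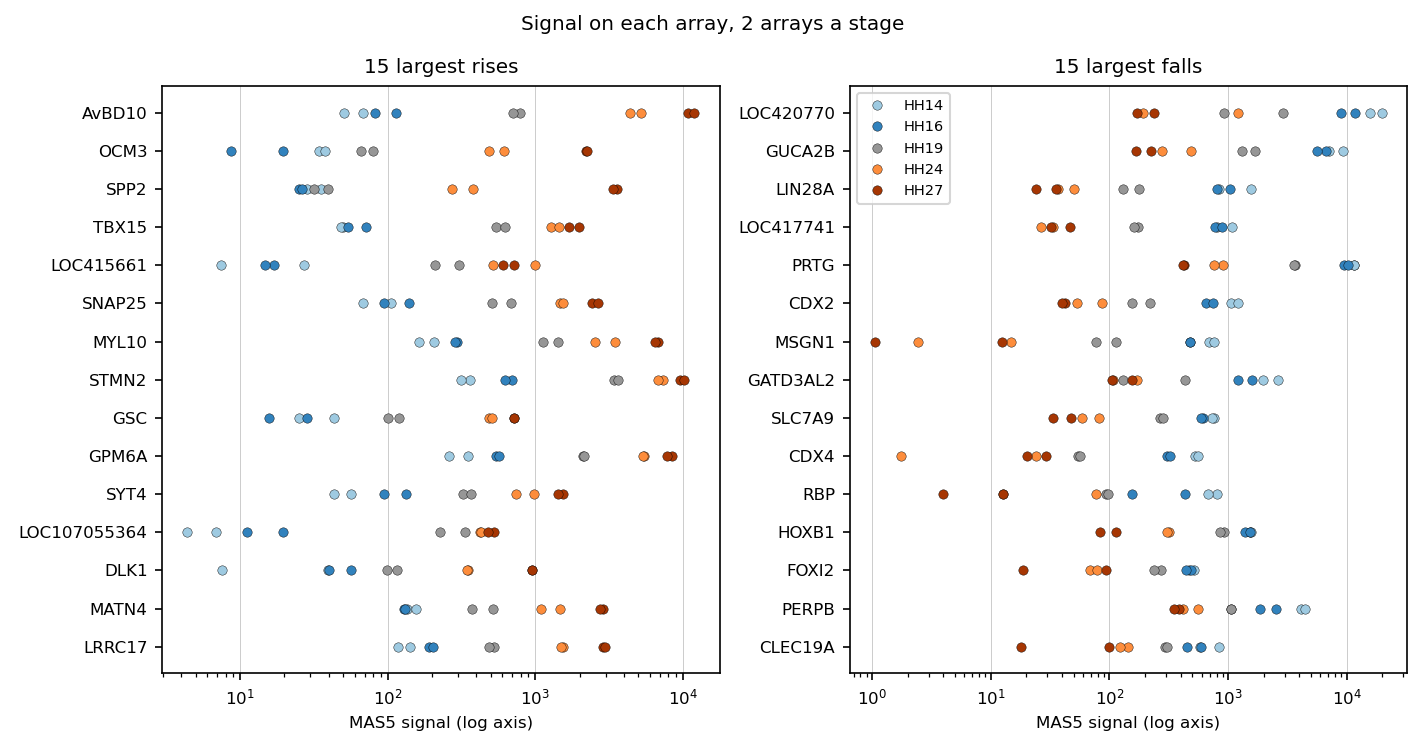
MAS5 signal (log axis) on each array for the 15 genes with the largest rises and the 15 with the largest falls after signals below background were raised to it, with the 2 arrays of HH14, HH16, HH19, HH24 and HH27 as points. HH19 is not in the comparison and is shown for its place between the groups, and SPP2 is still near its early level there.

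Genes of the neuronal cytoskeleton and synapse rose together. Of 34 measured members of that list 28 were called higher (82.4%) and 0 lower, against 6.97% and 2.06% of all genes. The median change was 1.71 against 0.02 over all genes. STMN2, a microtubule regulator of growing axons, read 361.6 and 315.7 at HH14, 701.5 and 624.5 at HH16, 7408 and 6844 at HH24, and 9547 and 10200 at HH27 (17.7-fold, log2 4.15 ± 0.174). SNAP25, a SNARE protein of synaptic vesicle release, read 68.6 to 140.5 early, 1470 and 1548 at HH24, and 2443 and 2673 at HH27 (19.9-fold). SYT4, a synaptotagmin, rose 15.0-fold (adjusted p = 0.00115) and RTN1, a reticulon of neuroendocrine membranes, 8.41-fold, from 1008 to 1594 early to 12700 and 14220 at HH27. Groups that do not overlap were a condition for naming STMN2, SNAP25 and SYT4. RTN1 was named without that condition, and its groups did not overlap either (18% of all genes separated in this direction). The summed signal of the list was 20310 to 24370 on the early arrays, 62120 and 63730 at HH24, and 86240 and 85130 at HH27.

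Transcription factors that specify neurons followed. In the list of proneural and neuron specification factors 12 of 20 measured genes rose (60%) and 0 fell (median change 1.44). Over all genes 6.97% rose and 2.06% fell. EBF3, which acts in differentiating neurons, read 477.6 to 667.7 early and 2312 to 3573 late (5.16-fold). ATOH7, needed for retinal ganglion cells, was below background on all early arrays and read 133.8 and 112.1 at HH24 and 241.7 and 268.5 at HH27 (at least 5.57-fold higher). ST18, a zinc finger factor, was below background on 3 early arrays and read 158.8 to 215.3 late (at least 5.42-fold higher). NEUROD6 read 16.9 and 85.0 at HH24 and 389.0 and 370.8 at HH27, and it lost its call when the stages within a group were pooled. NEUROD1 rose 2.69-fold with an adjusted p of 0.0485 and lost its call in 12 of 19 alternative settings.

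Of the genes for neurotransmitter enzymes, transporters and receptors, 9 of 27 rose (33.3%) and 0 fell, against 6.97% and 2.06% of all genes (median 0.79). GRIA2, an AMPA receptor subunit for glutamate, read 123.9 to 175.0 early, 961.3 and 1178 at HH24, and 1964 and 1798 at HH27 (9.21-fold, adjusted p = 4.24e-14). SLC32A1, which loads GABA and glycine into vesicles, rose 3.57-fold, and SLC18A3, which loads acetylcholine, 3.56-fold. SLC32A1 read 362.3 and 346.3 at HH24 and 498.9 and 524.3 at HH27. SLC18A3 read 519.4 and 554.9 at HH24 and 375.8 and 371.2 at HH27, and neither gene was called between these stages (adjusted p = 0.192 and 0.471). ACHE, acetylcholinesterase, rose 4.95-fold with 886.0 in HH27 replicate 1 and 543.1 to 558.4 on the other late arrays, and its change was 0.46 (adjusted p = 0.383) when its probe sets were averaged.

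Lens genes formed another group that rose. Of 17 measured, 11 were higher (64.7%) and 0 lower, against 6.97% and 2.06% of all genes (median 1.49). CRYAA, the alpha A crystallin, read 31.6 and 9.37 at HH14, 116.7 and 43.3 at HH16, 553.8 and 486.1 at HH24, and 606.8 and 913.3 at HH27 (at least 12.8-fold, with 2 early arrays below background). BFSP1, the lens filament protein filensin, rose 12.2-fold, to 761.6 to 922.0, and CRYBA2, a beta crystallin, from 46.2 to 107.8 early to 557.2 to 676.4 late. CRYAB, the alpha B crystallin, which muscle also expresses, rose 5.59-fold. In the pigment cell list 6 of 10 rose (60%) and 0 fell, against 6.97% and 2.06% of all genes. The median was 2.79, or 2.13 with signals raised to background. DCT, TYR and TYRP1, the enzymes of melanin synthesis, rose 12.6-fold, at least 7.59-fold and 6.04-fold, and MLANA, a melanosome protein, at least 9.23-fold. DCT read 44.0 to 69.1 on the early arrays and 551.3, 632.3, 881.7 and 871.7 on the late ones.

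In the retina and eye field list 4 of 14 genes rose (28.6%) and 1 fell (7.14%), against 6.97% and 2.06% of all genes (median 0.58). ALDH1A1, a retinaldehyde dehydrogenase of the dorsal retina, read 124.6 to 183.6 early, 485.1 and 599.8 at HH24, and 1301 and 1186 at HH27 (5.25-fold). RLBP1, the retinaldehyde-binding protein of pigment epithelium and Müller glia, rose 3.41-fold. The gene that fell, TTR, the carrier of thyroid hormone and retinol-binding protein, is also on the liver and yolk sac lists.

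Skeletal tissue genes rose without any called fall. Of 25 cartilage genes 10 rose (40%) and 0 fell (median 0.90, or 0.70 with signals raised to background). Of 15 bone and tendon genes 8 rose (53.3%) and 0 fell (median 1.07). Over all genes 6.97% rose and 2.06% fell. MATN4, a matrilin of the cartilage matrix, read 128.9 to 155.9 on the early arrays, 1100 and 1467 at HH24, and 2866 and 2772 at HH27 (13.8-fold, adjusted p = 5.71e-15). COL9A1 and COL11A1, fibril collagens of cartilage, rose 6.85-fold and 5.15-fold, and COL9A1 went from 1614 and 1884 at HH24 to 5190 and 4758 at HH27. MATN1, the cartilage matrix protein, read 25.9 to 63.2 early, 78.7 and 127.4 at HH24, and 388.4 and 443.0 at HH27; its call was lost when its probe sets were averaged. Among tendon factors MKX rose at least 8.10-fold (3 early arrays below background), TNMD, tenomodulin, at least 6.12-fold (2 below), and SCX, scleraxis, 5.04-fold. RUNX2, the factor of bone-forming cells, read 12.2 to 36.6 early, with 3 arrays below background, and 76.8 to 228.0 late (at least 4.23-fold higher).

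Connective tissue matrix genes rose in 12 of 31 cases (38.7%) and fell in 0, against 6.97% and 2.06% of all genes (median 0.93). OGN, the small proteoglycan osteoglycin, read 0.38 to 45.2 early and 260.2, 359.9, 661.6 and 597.0 late (at least 12.4-fold higher, with 2 early arrays below background). COL6A1 rose 5.88-fold, COL12A1 4.25-fold and FBLN5, an elastic fibre protein, 3.89-fold. COL12A1 read 1261 to 1703 on the early arrays, 4824 and 4642 at HH24, and 8623 and 7896 at HH27, so each group and each late stage stood apart.

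Muscle genes rose in both lists. Of 14 myogenic factors and muscle receptor genes 6 rose (42.9%) and 0 fell, against 6.97% and 2.06% of all genes (median 1.03). MYOD1, the master factor of the skeletal muscle lineage, read 129.9 to 191.8 early, 510.8 and 602.7 at HH24, and 1030 and 950.5 at HH27 (4.80-fold, adjusted p = 7.23e-08). MYOG, myogenin, rose at least 5.44-fold, and TMEM8C, a membrane protein needed for myoblast fusion, at least 3.66-fold from below background on all early arrays. CHRNA1, the muscle acetylcholine receptor subunit, rose 3.40-fold. Of 28 contractile genes 10 rose (35.7%) and 1 fell (3.57%), against 6.97% and 2.06% of all genes. The median was 0.96, or 0.43 with 6 rises when probe sets had to reach the filter on 4 of the 8 arrays. MYBPC1, slow myosin-binding protein C, read at most 75.2 early and 444.4, 464.2, 726.4 and 755.3 late (11.7-fold), while TNNI2, MYL1 and MYOZ2 rose 5.69-fold, 5.23-fold and 4.92-fold. The contractile gene that fell was MYBPC2, fast myosin-binding protein C, from 110.0 to 282.6 early to 56.8 to 102.6 late; it was named after its value was seen.

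Smooth and cardiac muscle genes did not move as one. ACTG2, the enteric smooth muscle actin, rose 5.18-fold and MYH11, smooth muscle myosin, 2.56-fold, with 2240 in HH24 replicate 1 against 1239 to 1341 on the other late arrays. ACTA2, vascular smooth muscle actin, fell at least 2.69-fold, from 86.2 to 143.9 to 11.0 to 58.9, and lost its call without HH24 replicate 2 or HH27 replicate 1. Of 25 cardiac genes 2 rose (8%) and 3 fell (12%), against 6.97% and 2.06% of all genes. The median was 0.07, and -0.03 when arrays were scaled to the 75th percentile. GATA5, a heart and endoderm factor, read 5054 to 5674 early, 2918 and 2446 at HH24, and 1888 and 1519 at HH27 (fell by 1.35 on the log2 scale, adjusted p = 3.71e-08). HAND2, also a limb factor, fell by 1.29 and NKX2-5, the cardiac homeobox gene, by 1.14, the last with its call lost in 7 of 19 alternatives. ACTN2, sarcomeric actinin, rose 2.08-fold and lost its call in 4 of them.

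Genes of limb mesenchyme and patterning did not move as one. Of 27 measured limb mesenchyme and patterning genes 6 rose (22.2%) and 2 fell (7.41%), against 6.97% and 2.06% of all genes. The median was 0.16 (0.06 to 0.28 over the alternatives), and 19 were not called. TBX15 led the rises (above). LHX9 and LHX2, LIM homeobox genes of the distal limb and the forebrain, rose 4.29-fold and 2.62-fold, from 66.9 to 101.5 to 305.2 to 506.9 for LHX9 and from 59.6 to 108.1 to 198.6 to 282.3 for LHX2, whose call was lost in 6 of 19 alternatives. MECOM, a zinc finger factor, read 406.9 to 535.2 early, 1544 and 1617 at HH24, and 1302 and 1322 at HH27 (3.13-fold). GREM1, the BMP antagonist that links the posterior mesenchyme to the apical ridge, was below background on both HH14 arrays, read 80.9 and 79.1 at HH16, and 101.9 to 170.5 late (at least 2.66-fold higher).

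TBX5, the T-box gene of the forelimb and heart, read 128.7 and 168.3 at HH14, 182.8 and 187.6 at HH16, 309.0 and 423.5 at HH24, and 314.7 and 294.7 at HH27. Its groups did not overlap, but at 2.01-fold (adjusted p = 0.0112) it sat at the threshold and lost its call in 7 of 19 alternatives. TBX4, its hindlimb counterpart, read 47.9 to 154.9 early and 56.2 to 120.9 late (change -0.07 ± 0.543, adjusted p = 0.95), with overlapping groups. PITX1, the hindlimb homeobox gene, read 1696 to 2092 early and 1984, 2171, 2710 and 2767 late, a difference of 0.36 on the log2 scale that stayed under 2-fold (adjusted p = 0.0264).

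FGF8, the ligand of the apical ridge that midbrain, tail bud and face also express, was steady at 228.4 to 250.7 on the early arrays and then read 117.2 and 97.0 at HH24 and 57.1 and 69.4 at HH27 (fell by 1.54 on the log2 scale, adjusted p = 8.94e-06). HAND2 was the other limb gene that fell, from 611.7 to 1147 to 226.7 to 463.8. SP8, an ectodermal factor of the ridge, read 907.8 to 1126 early and 458.1 to 610.3 late, a change of -0.99 ± 0.174 that fell just short of 2-fold. FGF10 (change 0.03), SHH (-0.57) and LMX1B (0.36), the mesenchymal, posterior and dorsal signals or factors of the bud, had overlapping groups. PRRX1, a mesenchymal homeobox gene, read 3510 to 4278 early and 4034 to 4819 late (0.16 ± 0.0998), and its relative PRRX2 185.5 to 303.3 early and 598.5 to 719.8 late, 2.51-fold at an adjusted p of 0.0522. MSX1, MSX2, SALL1 and BMP2 were lower on all 4 late arrays by less than 2-fold (changes -0.76, -0.48, -0.48 and -0.43). The adjusted p in limma was 6.36e-05 for MSX1, 9.56e-05 for MSX2 and 0.000258 for BMP2. EN1, DLX6 and MEIS2 were higher on all 4 without a call (0.65, 0.71 and 0.34), at adjusted p of 0.0784, 0.119 and 0.725. Over all genes 18% were higher and 17% lower on all 4 late arrays. DLX5 (0.04), GLI3 (0.08), SHOX (0.49) and BMP4 (-1.03) had overlapping groups and were not called, and SHOX and BMP4 were below background on some arrays of both groups.

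Hox genes are given by their group along the clusters, and differences between the groups were not tested. Of 8 measured genes of groups 1 to 4, which mark the hindbrain and neck, 3 fell (37.5%) and 0 rose (median -0.62). Over all genes 2.06% fell and 6.97% rose. HOXB1 read 1386 to 1576 on the early arrays, 321.2 and 303.9 at HH24, and 84.1 and 113.4 at HH27, an 8.62-fold fall (adjusted p = 2.94e-11), and HOXD4 and HOXB4 fell 2.46-fold and 2.70-fold. Of 9 genes of groups 5 to 8, 0 were called in limma in either direction. An unadjusted p under 0.05 was found for 3 and an adjusted p below 0.05 for 2, 1 higher and 1 lower. HOXA6 was higher on all late arrays (change 0.50, adjusted p = 0.0011 in limma). HOXA7 was lower on all of them, at 625.2 to 786.2 against 1268 to 1651 (adjusted p = 0.00126 in limma). The fall of HOXA7 was just short of 2-fold. With quantile normalization 1 gene of this list was called lower. Over the alternatives the change ran from -0.38 to 0.57 for HOXA6 and from -1.1 to -0.49 for HOXA7.

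Among 11 genes of groups 9 to 13, which pattern tail and distal limb, 1 rose (9.09%, against 6.97% of all genes) and 0 fell. The median was 0.21 (-0.02 to 0.27 over the alternatives, the lowest without HH14 replicate 2). HOXD13, the gene of the digit region, read 150.8 and 193.5 at HH14, 227.1 and 239.2 at HH16, 452.4 and 384.6 at HH24, and 556.0 and 466.5 at HH27 (2.31-fold, adjusted p = 4.2e-05). HOXD12 read 88.5 to 172.7 early and 222.0, 251.7, 502.9 and 404.7 late, 2.96-fold at an adjusted p of 0.0745, and it was called in a fit of the 8 arrays alone (adjusted p = 0.00025). HOXA11 was higher on every late array as well, at 1061 to 1631 against 727.8 to 928.1, but its spread within the other stages of the series was wide (change 0.76 ± 0.603). The other 8 genes were not called, with changes of 0.23 (HOXA10), 0.22 (HOXD11), 0.21 (HOXC11), -0.06 (HOXA13), -0.07 (HOXA9), -0.26 (HOXD10), -0.30 (HOXC9) and -0.35 (HOXC13), and the groups of all of them except HOXC9 overlapped.

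**Figure D3:**
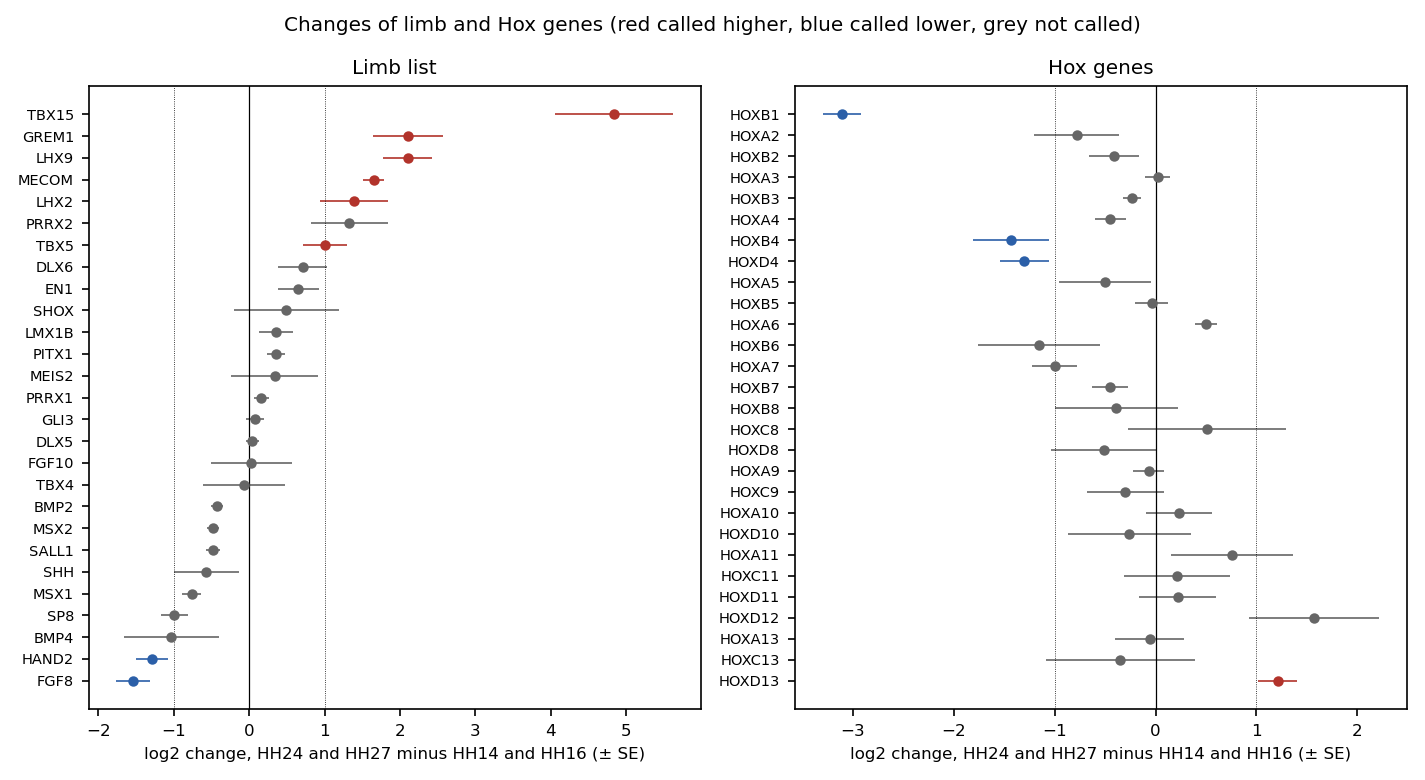
Log2 change between the groups with its standard error for each measured gene of the limb list (left) and of Hox groups 1 to 13 (right), with dotted lines at a 2-fold change. TBX15 stands apart at the top of the limb list, FGF8 and HAND2 lie at its lower end, and HOXB1 has the largest fall among Hox genes.

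Macrophage genes rose. In the leukocyte and macrophage list 9 of 20 were higher (45%) and 1 lower (5%), against 6.97% and 2.06% of all genes (median 0.93). The summed signal of the list was 2951 to 3393 on the early arrays and 5016 to 6611 on the late ones. CTSS, the lysosomal protease cathepsin S, read 33.4 to 78.9 early and 276.4 to 313.3 late (5.55-fold). C1QB, a complement chain made by macrophages, rose 4.24-fold and LCP1, the leukocyte plastin, 3.73-fold. CTSK, the osteoclast protease cathepsin K, read 252.3 and 247.2 at HH24 and 635.9 and 616.4 at HH27 against 88.1 to 172.5 early. The member that fell was CD3E, a T cell receptor chain, from 245.7 to 360.9 to 99.5 to 172.3, named after its value was seen.

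Blood and vessel genes moved in both directions. The 8 globin genes had 0 calls in limma and 0 at an unadjusted p under 0.05, and 1 was higher on all 4 late arrays (18% of all genes were). HBA1 read 34880 to 39390 early and 31080 to 44000 late (change 0 ± 0.632). Its error comes from the spread between the 2 arrays of a stage, taken over all 15 stages, and at 0.632 small changes could not be called. Of 17 other erythroid genes 1 rose (5.88%) and 4 fell (23.5%), against 6.97% and 2.06% of all genes. TSPO2, a translocator protein of red cell precursors, fell 3.07-fold, from 3853 to 4915 to 1169 to 1802, LMO2, a blood and vessel factor, 2.65-fold, and GFI1B, a repressor of the erythroid lineage, at least 3.17-fold, the last with its call lost when its probe sets were averaged. BCL11A, the repressor of embryonic globins that neurons also express, read 231.0 and 244.6 at HH14, 555.6 and 490.1 at HH16, and 4387 to 4901 late (13.1-fold, adjusted p = 3.64e-15). In the endothelium list 1 of 23 rose (4.35%) and 2 fell (8.7%), against 6.97% and 2.06% of all genes. ERG rose 2.77-fold, and FLT1, a VEGF receptor, fell 2.46-fold beside LMO2.

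The liver list split. Of 34 measured genes 13 rose (38.2%) and 6 fell (17.6%), against 6.97% and 2.06% of all genes. The median was 0.84, or 0.60 with signals raised to background, and 8 genes rose when the stages within a group were pooled. SPP2, a secreted phosphoprotein made by liver, read 25.1 to 35.2 on the early arrays, 272.9 and 380.6 at HH24, and 3580 and 3352 at HH27 (at least 33.2-fold higher, with 3 early arrays below background). RBP4, the plasma retinol carrier, was below background on all early arrays and on HH24 replicate 1 and read 1237 and 1119 at HH27 (at least 8.89-fold higher). HPD, an enzyme of tyrosine breakdown, rose 5.86-fold to 1575 and 1851 at HH27. In all of these both HH27 arrays stood above both HH24 arrays. ALB, serum albumin, named after its value was seen, read 81.2 to 205.2 early, 123.9 and 112.4 at HH24, and 779.2 and 621.0 at HH27.

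Several genes on both the liver and the yolk sac endoderm lists were called lower. RBP4A read 4961 and 4879 at HH14, 1578 and 2918 at HH16, 340.6 and 672.0 at HH24, and 1423 and 1331 at HH27 (fell by 2.00 on the log2 scale), and its rise from HH24 to HH27 was called. APOA1, the main protein of high-density lipoprotein, read 4367, 4237, 1678 and 2665 early and 782.6, 1153, 1732 and 1649 late (2.38-fold lower, groups overlapping). AFP, alpha-fetoprotein, read 740.5, 427.4, 70.6 and 451.8 early and 18.9 to 99.7 late (at least 5.91-fold lower), with its call lost without HH16 replicate 2 (change -2.32, adjusted p = 0.0579) or without HH24 replicate 1. RBP4, on both lists too, was called higher, as given above.

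Of 23 measured yolk sac endoderm genes 3 rose (13%) and 5 fell (21.7%), against 6.97% and 2.06% of all genes. The median of these 23 was 0.26 and turned to -0.35 under the filter on the 8 arrays. Their summed signal was 36100 and 35490 at HH14, 15620 in HH16 replicate 1, 25720 in HH16 replicate 2, 9847 and 11510 at HH24 and 25730 and 25210 at HH27. It thus differed between the 2 HH16 arrays and was lowest at HH24. FETUB, a fetuin of liver and yolk sac, read 29.5 to 92.6 early, 95.3 and 133.1 at HH24 and 1905 and 1886 at HH27 (at least 8.99-fold higher). The share of extraembryonic tissue in a pool is not given, and its part in the changes of these genes was not tested.

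Genes of early embryonic stages were among the largest falls. In the early embryonic and heterochronic list 6 of 13 fell (46.2%) and 0 rose, against 2.06% and 6.97% of all genes (median -0.84). LIN28A, the RNA-binding protein that blocks let-7 miRNA maturation, read 837.3 and 1566 at HH14, 814.9 and 1031 at HH16, 37.0 and 50.4 at HH24, and 35.5 and 23.9 at HH27 (at least 24.6-fold lower, 2 late arrays below background). Its paralogue LIN28B read 729.9 to 1085 early, 206.4 and 344.3 at HH24, and 84.5 and 63.2 at HH27 (6.80-fold lower). PRTG, the immunoglobulin superfamily receptor protogenin, went from 9508 to 11600 early to 903.7 and 758.6 at HH24 and 423.1 and 417.1 at HH27, an 18.1-fold fall with the lowest standard error among the 15 largest (log2 -4.18 ± 0.0879, adjusted p = 1.93e-19). CDX2, a caudal homeobox gene of the tail end, fell 16.7-fold, from 648.4 to 1209 to 40.3 to 87.4. Groups that do not overlap were a condition for naming LIN28A, PRTG and CDX2. Those of LIN28B, named without that condition, did not overlap either (17% of all genes separated in this direction).

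Tail bud and somite genes fell as well. In the presomitic mesoderm and somite list 7 of 21 fell (33.3%) and 0 rose, against 2.06% and 6.97% of all genes (median -0.47). MSGN1, the mesogenin factor of presomitic mesoderm, read 697.0 and 757.5 at HH14, 476.4 and 474.9 at HH16, and 1.06 to 14.7 on the late arrays, all below background (at least 15.8-fold lower). CDX4 fell at least 11.1-fold to below background on all late arrays. RIPPLY2, which ends the segmentation programme in the forming somite, fell at least 3.24-fold and CDX1 at least 3.25-fold. The summed signal of the list was 15820 to 17520 early and 16000 to 16400 late, a sum that follows the brightest members, which were not called. TBXT, brachyury, the T-box factor of the notochord and tail bud, named after its value was seen, read 1438 to 1802 early and 639.2 to 742.8 late (2.33-fold lower).

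LOC420770, named here by identifier, had the largest fall once signals below background were raised to it; MSGN1 and HAND1, below background on all late arrays, have only lower bounds and cannot be ranked against it. Its signal went from 15600, 19710, 9037 and 11800 early to 192.5, 1203, 172.3 and 237.9 late (43.1-fold lower, adjusted p = 3.63e-08). GUCA2B, the gut peptide uroguanylin, fell 26.5-fold, from 5644 to 9393 to 169.4 to 485.6. SLC7A9, the light chain of the cystine and dibasic amino acid transporter of kidney and gut, fell 12.8-fold, from 591.3 to 760.9 to 33.4 to 81.4, and its heavy chain partner SLC3A1, named after its value was seen, 4.35-fold, from 426.2 to 516.1 to 57.7 to 188.0. FOXI2, a forkhead gene of ectoderm, fell at least 7.34-fold and PERPB, of a family of desmosome-associated membrane proteins, 7.22-fold. LOC417741 (at least 22.2-fold lower), GATD3AL2 (13.4-fold), RBP (at least 9.67-fold) and CLEC19A (at least 6.80-fold) completed the 15 largest falls by the same measure with LIN28A, PRTG, CDX2, MSGN1, CDX4 and HOXB1. RBP differed among the early arrays, at 813.5 and 684.3 at HH14 and 154.8 and 431.2 at HH16, in the same order as the yolk sac endoderm list.

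In the epidermis list 3 of 16 genes were called lower (18.8%, against 2.06% of all genes) and 0 higher. The median was -0.12, and changes were positive for 6 genes and negative for 10. DSP, desmoplakin, the anchor of keratin filaments in desmosomes, read 2982, 3370, 2483 and 2637 early and 630.2 to 658.5 late, a 4.42-fold fall. KRT24, a keratin, read 17320 to 22230 early and 4205 to 6662 late (3.80-fold lower), and DSG2, desmoglein, fell at least 2.09-fold. The late arrays of DSP lay close together, and its groups did not overlap. The other 13 genes of the list were not called.

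Signal genes were called in both directions, 4 of 48 higher and 4 lower (8.33% each, median -0.13). Over all genes 6.97% were called higher and 2.06% lower. WNT4, of kidney and gonad, fell 4.11-fold, from 627.3 to 684.5 to 120.8 to 221.9, and CYP26C1, a retinoic acid degrading enzyme of the hindbrain, 2.84-fold. WNT3 rose at least 3.08-fold with its call lost in 7 of 19 alternatives. WNT11, of somite and limb mesenchyme, named after its value was seen, read 170.0 to 214.0 early, 450.2 and 450.9 at HH24 and 603.3 and 608.3 at HH27.

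Several organ lists held a few calls each. In the kidney list 4 of 16 rose (25%) and 2 fell (12.5%), against 6.97% and 2.06% of all genes. RET, the receptor of the ureteric bud and enteric neurons, rose 3.10-fold and EMX2 2.85-fold, while SLC12A1, a salt carrier of the nephron, fell 4.76-fold, from 649.6 to 1122 to 104.1 to 272.1. CALB1, calbindin, was below background on all early arrays and on HH24 replicate 1, read 207.3 and 169.0 at HH27, and lost its call in 9 of 19 alternatives. In the gut and pancreas list 2 of 20 rose (10%) and 3 fell (15%), against 6.97% and 2.06% of all genes. SST1, somatostatin, rose 4.97-fold, to 1321 and 1385 at HH24 and 2083 and 2126 at HH27. FOXA2, a factor of endoderm and floor plate, fell 2.49-fold. The lung and thyroid list had 2 falls among 7 genes (28.6%, against 2.06% of all genes), FOXA2 and SLC34A2. SLC34A2, a phosphate carrier, read 64.1 in HH24 replicate 1 and 4.04 in HH27 replicate 2 and lost its call in 2 alternatives.

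Neural crest genes rose in 4 of 21 cases (19%) and fell in 2 (9.52%), against 6.97% and 2.06% of all genes. SOX8 read 167.5 to 325.8 early, 1330 and 1018 at HH24, and 666.1 and 862.0 at HH27 (3.67-fold), and EDNRB2, an endothelin receptor of avian pigment cells, was called at an adjusted p of 0.0444 and lost its call in 13 of 19 alternatives. HAND1, of sympathetic neurons, heart and extraembryonic mesoderm, read 97.1 to 233.0 early and was below background on all late arrays (at least 4.47-fold lower). Of 23 neural progenitor genes 3 rose (13%) and 1 fell (4.35%), against 6.97% and 2.06% of all genes. FABP7, a fatty acid carrier of radial glia, rose 2.35-fold from 6617 to 7397 to 15170 to 17920, ZIC1 2.10-fold with its call lost at scaling to the 75th percentile, and NKX6-2, of the ventral neural tube, fell by 1.13 on the log2 scale. FABP7 was also the 1 call among 11 glia genes (9.09%, against 6.97% of all genes called higher). GJA1, connexin 43, was higher on all late arrays by 0.50.

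Hormone genes added 4 rises among 16 (25%) in the pituitary and hypothalamus list, against 6.97% of all genes. In the list of insulin-like growth factors and the thyroid hormone axis 4 of 18 rose (22.2%). Both lists had 0 falls. GAL, galanin, rose 2.13-fold, from 193.5 to 208.9 to 386.6 to 499.2. FSHB read 50.5 and 94.7 at HH27 and was below background on all other arrays of the comparison, and it lost its call in 11 of 19 alternatives. GHRH was below background on all 8 arrays, so that its call rests on signals that carry no level, and lost it in 3 of them. With quantile normalization 2 genes of the pituitary and hypothalamus list rose in place of 4. IGFBP1 rose at least 3.21-fold, DIO1, a deiodinase that activates thyroid hormone, 2.62-fold to 242.4 and 241.4 at HH27, and IGFBP5 2.22-fold. THRB, a thyroid hormone receptor, was below background on all early arrays and on 2 of the 4 late ones. Among 9 germ cell genes 1 was called higher (11.1%, against 6.97% of all genes). This was TDRD9, at 70.6 to 102.0 late against 13.2 to 64.2 early, and it lost the call in 10 of 19 alternatives.

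Among genes that all cells use, 0 of 52 ribosomal protein genes and 0 of 48 oxidative phosphorylation genes were called in limma, with medians of 0.02 and -0.07. The first median was -0.08 with scaling to the 75th percentile and the second 0.02 with quantile normalization. At an unadjusted p under 0.05 stood 2 of the ribosomal genes and 20 of the oxidative phosphorylation genes, 17 of the latter lower. Of these 20, 19 kept an adjusted p below 0.05 in limma (2 higher, 17 lower) but changed by less than 2-fold. Over all 29600 probe sets 4581 were higher and 4096 lower at that adjusted p. RPL35 read 39410 to 45720 early and 35650 to 56950 late, the highest in HH24 replicate 1. Of 37 cell cycle genes 0 rose and 2 fell (5.41%, against 2.06% of all genes), with a median of -0.38 (-0.48 to -0.31 over the alternatives). In that list 26 genes were lower on all 4 late arrays, against 17% of all genes. A lower signal with an adjusted p below 0.05 was found for 32 of the 37, 30 of them by less than 2-fold. The count over all probe sets was 4096 of 29600. CCNE2, a cyclin of S phase entry, read 1576 to 1844 early, 1176 and 1107 at HH24 and 550.1 and 594.2 at HH27, and ORC1, a subunit of the origin recognition complex, fell by 1.08 on the log2 scale. MYC, a transcription factor of cell growth, read 1636 to 1961 early and 528.2 to 879.0 late (2.68-fold lower). It was the 1 call among 19 heat shock and immediate early genes (5.26%, against 2.06% of all genes called lower). Of 18 glycolysis genes 1 was called higher (5.56%, against 6.97% of all genes). This was ENO2, the neuronal enolase, at 2.37-fold, and GAPDH had a change of 0.05 ± 0.081 (adjusted p = 0.738 in limma).

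**Figure D4:**
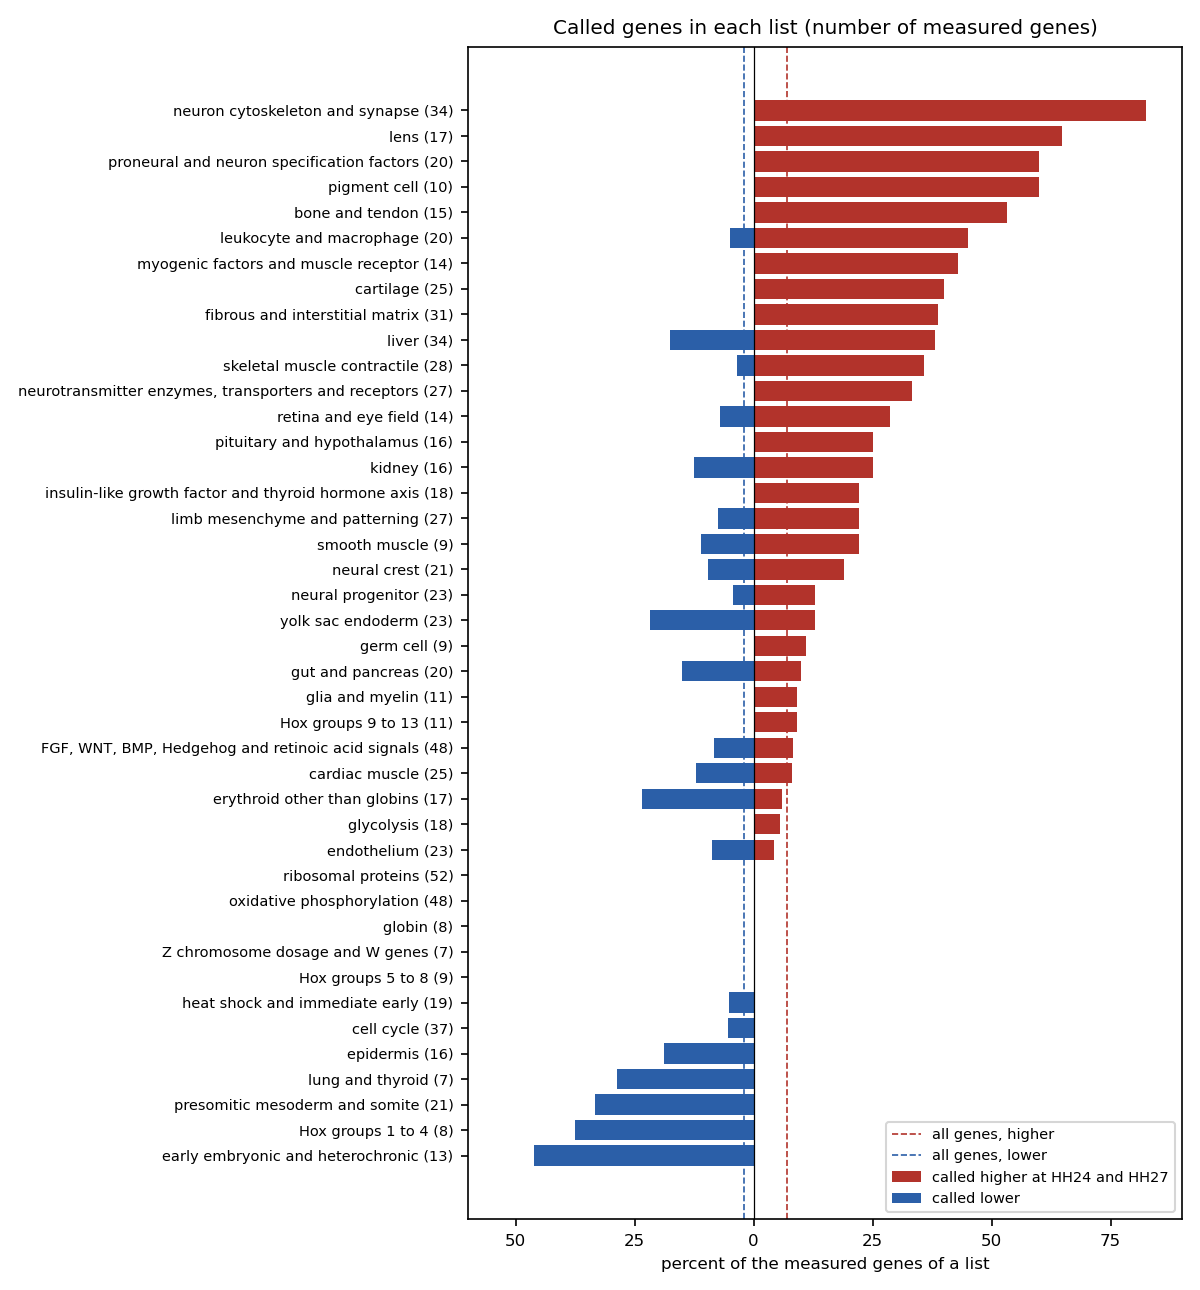
Percent of the measured genes of each list called higher (red, to the right) and lower (blue, to the left) at HH24 and HH27, with the number of measured genes in parentheses and dashed lines at the shares over all genes (6.97% and 2.06%). Neuron, lens, pigment, tendon, muscle and matrix lists extend to the right and the early embryonic, anterior Hox and somite lists to the left.

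The late group was not uniform. Between HH24 and HH27, 273 of 29600 probe sets (0.922%) were called, 223 of them (0.753%) with a rise to HH27 and 50 (0.169%) with a fall. Of the 846 genes that rose between the groups, 64 rose again from HH24 to HH27 and 0 fell, while 1.06% of all genes rose. HH27 lay above HH24 for 84.6% of the genes that rose and 36.8% of those that fell, against 50.1% of all genes. FETUB, RBP4 and SPP2, liver genes given above, led the further rises with log2 changes of 4.07, 4.12 and 3.43. FGFBP2, an FGF-binding protein, went from 84.1 and 56.9 to 564.9 and 610.0 (adjusted p = 0.0444) and CL2 from 43.3 and 89.2 to 447.5 and 497.9. LIN28B fell on from 206.4 and 344.3 to 84.5 and 63.2, HOXB1 by 1.68 on the log2 scale, and CHORDC1, a chaperone partner, from 1052 and 737.3 to 378.4 and 368.3. LOC424918 (-1.80) and the F-box gene FBXL14 (-1.32) fell from HH24 to HH27 without a call between the groups. The count depended on single arrays, with 124 probe sets without HH24 replicate 1 and 593 without HH24 replicate 2.

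For 8 of the 250 genes that fell between the groups a rise from HH24 to HH27 was called, and for 6 a further fall. Over all genes 1.06% were called higher and 0.156% lower between these stages. The 8 were RBP4A, SLC3A1, FAM150A, IFI27L2, LOC421356, MSLN, PROSER2 and UBOX5, named after their values were seen. SLC3A1 went from 57.7 and 84.0 at HH24 to 156.0 and 188.0 at HH27, still below all early arrays. FAM150A, LOC421356, MSLN, PROSER2 and UBOX5 were below background on both HH24 arrays and IFI27L2 on 1, so their rises start from signals that carry no level. These 6 read 38.9 to 190.4 at HH27.

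The early group was closer. HH14 and HH16 differed in 21 of 29600 probe sets (0.0709%), with 7 rises to HH16 (0.0236%) and 14 falls (0.0473%). Over genes these were 3 rises (0.0247%) and 10 falls (0.0823%). The number of probe sets was 65 without HH14 replicate 2, 63 without HH16 replicate 2 and 4 in a fit of the 8 arrays alone. BCL11A rose by 1.13 on the log2 scale between these stages (adjusted p = 0.0195). ZNF618, a zinc finger gene, rose from 263.2 and 289.5 to 638.6 and 605.7 and had no change between the groups (-0.10). Of the 10 genes that fell, 5 were still above background on at least 1 HH16 array: APOA1, RBP4A, FGG, a fibrinogen chain, and CUBN, the cubilin receptor of yolk sac and kidney, by 1.02 to 1.39 on the log2 scale, and NQO1, a quinone reductase, by 1.75. The other 5, CL2, CKMT1B, HGD, HSD3B7 and PCK1, were below background on both HH16 arrays and are named after their values were seen. CL2 read 81.2 and 95.3 at HH14 and 5.88 and 12.3 at HH16, and the highest HH14 signal of the remaining 4 was the 94.6 of PCK1. FGG read 1170 and 1161 at HH14 and 331.1 and 596.0 at HH16. APOA1, RBP4A, FGG and CUBN, genes of liver or yolk sac, were all lower in HH16 replicate 1 than in HH16 replicate 2, and NQO1 was the reverse.

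HH19, which lies between the groups and took no part in the contrast, was intermediate. Its mean lay between the group means for 769 of the 846 genes that rose and 213 of the 250 that fell. The median gene that rose had covered 45.3% of its log2 change by HH19 (quartiles 30% and 62.1%), and the median gene that fell 56% (35.2% and 79%). STMN2 had covered 69.9% and TBX15 70.4%, while SPP2 had covered 6.06% and HOXB1 24.1%. LIN28A read 176.5 and 131.6 at HH19 (56.7%) and PRTG 3668 and 3582 (37.3%). These shares use the same early and late means as the contrast and are a description.

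After HH27 most of the rises went on. Over the 15 stages, 643 of the 846 genes that rose (76%) had their highest mean at HH32, HH34 or HH38, 91 at HH27 and 43 at HH24. AvBD10 reached a geometric mean of 17580 at HH34 and MYL10 16520 at HH38. AvBD10 had stage means of 1008 to 1079 from HH4 to HH8 before its low point of 58.8 at HH14. MECOM, TBX5 and HOXD13 were among the genes with their highest means at HH24 or HH27. Of the 250 genes that fell, 44 had their lowest mean at HH24 and 44 at HH27, and RBP4A and APOA1 were higher again at HH32 and later.

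**Figure D5:**
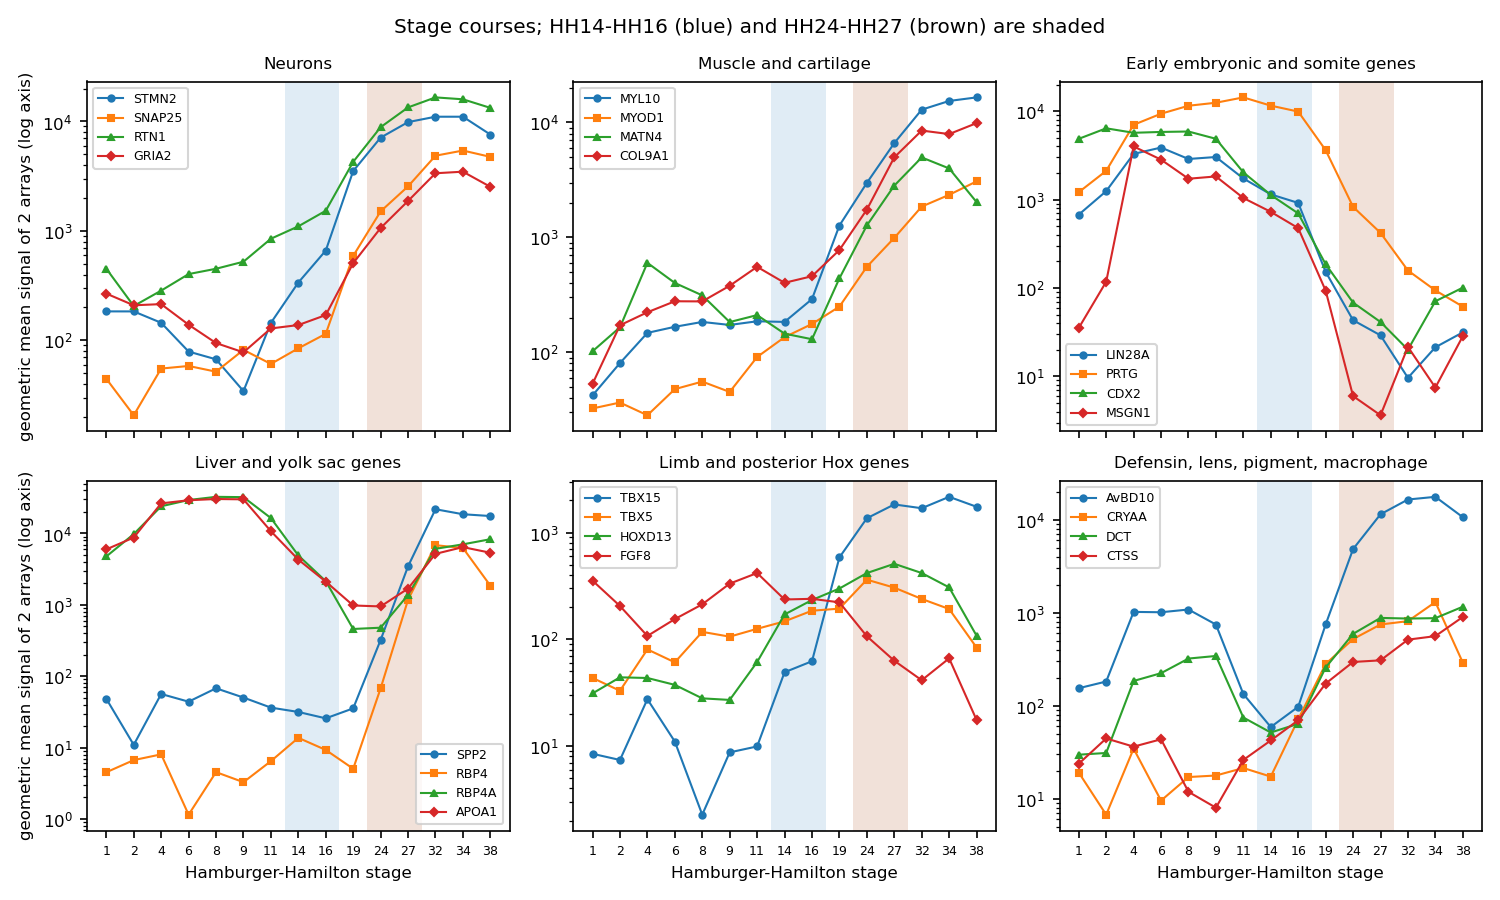
Geometric mean signal of the 2 arrays of each of 15 stages (log axis) for 24 genes in 6 panels, with HH14 and HH16 shaded blue and HH24 and HH27 shaded brown. Neuron, muscle and cartilage genes climb through the shaded stages, LIN28A, PRTG, CDX2 and MSGN1 descend, and RBP4A and APOA1 reach their lowest means at HH19 and HH24.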

How the data were processed

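RNA of whole chicken embryos was hybridised to Affymetrix Chicken Genome Arrays. Values are the deposited MAS5 signal intensities, per the submitters' processing notes. Their 2% trimmed mean is the same on each array; the sources used here do not give other MAS5 settings. Array number, not depth, limits precision.

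Signals were taken to log2. Chicken probe sets at or above the 40th percentile on 2 or more arrays were kept (29600). limma 3.58.1 in R 4.3.3 was fitted with a mean for each of 15 stages on 30 arrays (15 residual degrees of freedom, variance trend), with Benjamini-Hochberg adjustment. A call needed an adjusted p below 0.05 and a 2-fold change. The brightest probe set with a single symbol stood for a gene. Background is the 95th percentile of other organisms' probe sets; a fold against signals below it is written "at least". Errors are standard errors. The fit was tested on simulated data.

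Named genes were the 15 largest rises and falls, ranked after signals below background were raised to it, whose groups did not overlap and whose brighter group lay above the median, up to 4 called members of each list (or its brightest), the 5 largest changes each way within a group, and all limb and Hox 9 to 13 genes. Members and lists were chosen with earlier results of these data known. The replicate numbers do not pair arrays across stages, and nothing says that the pools share no parents. The p-values and standard errors measure only the spread between the 2 arrays of a stage, taken over all 15 stages. A gene whose replicates differed at stages outside the comparison therefore has a wider error here.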

Additional observations from a re-analysis of the deposited data

Results flagged for a closer look

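Within the 4 arrays of a group, 16 of 382 sets of values held 1 array far from the other 3 by Dixon's criterion, and chance alone gives about 1 in 20. For genes the criterion was applied to log2 signals, with those below background raised to it. The signals printed here are as read. In the early group 5 of these lay in HH16 replicate 1: DIO1 was low at 40.9, while DLX5 at 1925, GAPDH at 34380, HBA1 at 39390 and HSPA8 at 28920 were high. MATN1 was high in HH16 replicate 2 at 63.2, with the 25.9 of HH14 replicate 2 raised to background. In HH14 replicate 1 MEIS2 was low at 1084, and in HH14 replicate 2 MYC at 1636 and NKX6-2 at 609.9 were low.

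In the late group HH24 replicate 1 was high for MYH11 at 2240, SLC34A2 at 64.1 and TDRD9 at 102.0. For SLC34A2 this was with the 16.1 and 4.04 of the HH27 arrays raised to background. HH24 replicate 2 was high for LOC420770 at 1203, against 172.3 to 237.9 on the other late arrays. HH27 replicate 1 was high for ACHE at 886.0 and low for CRYBA2 at 557.2 and ZNF618 at 265.4. The groups of MATN1, MYC, NKX6-2, MYH11, LOC420770, ACHE and CRYBA2 did not overlap with these arrays included, which for LOC420770 was a condition of naming it. All of these were called genes. Among called genes the groups did not overlap for 742 of the 846 that rose and 203 of the 250 that fell. Over all genes 18% and 17% separated in these directions.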

How the results depend on the processing

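Between the groups 1938 (filter on the 8 arrays) to 2476 (no filter) probe sets were called over the alternatives, and 2149 to 2358 when 1 array was left out, with 1580 to 1839 higher and 463 to 730 lower. Quantile normalization gave 884 lower. From HH24 to HH27 leaving out an array gave 124 to 593 calls (141 without HH27 replicate 1 and 151 without HH27 replicate 2). From HH14 to HH16 it gave 20 to 65, and 11 were called with no variance trend and 4 in a fit of the 8 arrays. The 8-array fit has fewer residual degrees of freedom, but the cause of these differences in count was not tested. With the replicate block the counts were 2393, 282 and 22, and since the numbers do not pair the arrays, with correlations of -0.02 to 0.03, this is no paired result. The change of THRB reversed with no filter, to -1.28 (adjusted p = 0.188 in limma). A different and brighter probe set, which the filter had removed, then stood for THRB. Of 138 called genes that the rule names, 26 lost their call in at least 1 of 19 alternatives. Over all probe sets the median change was 0.063, -0.056 with quantile normalization and -0.037 with scaling to the 75th percentile. List medians near 0 changed sign with scaling for cardiac muscle, neural crest, neural progenitor, gut and ribosomal genes. The median of oxidative phosphorylation genes went from -0.07 to -0.17 with scaling to the 75th percentile and to 0.02 with quantile normalization. Signals near background limit what can be said of dim genes.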

Other observations

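The families below were chosen after their values were seen, so their counts are a description with no test. Over all genes 6.97% were called higher and 2.06% lower. AvBD10 was not the only antimicrobial peptide gene that was higher late: of 11 avian beta-defensin and cathelicidin genes, 6 were called higher and 0 lower (median change 1.93). That median is the change of AvBD4 and AvBD5, each below background on 4 early and 3 late arrays, so it carries no level. AvBD9 read 26.7 to 39.8 early, 119.0 and 190.9 at HH24, and 913.3 and 697.2 at HH27 (at least 10.1-fold higher). CATH1, a cathelicidin, was at least 6.51-fold higher, AvBD7 at least 5.73-fold and AvBD1 at least 4.37-fold, each with HH27 above HH24. AvBD4 stayed near background (at least 1.02-fold).

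All 4 genes of nuclear factor I, a family of DNA-binding factors, were higher late, with a median change of 2.36. NFIA read 90.8 to 109.4 on the early arrays, 743.3 and 836.2 at HH24, and 1861 and 1824 at HH27 (12.1-fold). NFIB was 7.22-fold higher, NFIC at least 3.09-fold and NFIX 2.26-fold. Among 11 ionotropic glutamate receptor genes 5 were higher and 0 lower (median 1.15): GRIA2, GRIA3 at 6.83-fold, GRIK1 at least 7.27-fold, GRIK3 at 2.35-fold and GRIA1 at least 1.62-fold.

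Of 7 desmosome genes 4 were lower late and 0 higher (median -1.84). PKP2, plakophilin 2, read 3156 to 5062 early and 950.2 to 1154 late (3.72-fold lower), and DSC1, a desmocollin, was at least 4.12-fold lower. JUP, plakoglobin, which adherens junctions also use, read 2856 to 3405 early and 2887 to 3136 late. KRT7, a keratin of simple epithelia, went from 19590 to 25110 early to 4034 to 7431 late (4.25-fold lower).

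Most genes that rose were higher still after HH27, but 91 had their highest mean at HH27 and 43 at HH24. Those named here were picked from these after their values were seen. LGR5, a receptor for R-spondins, had a mean of 371.3 at HH27 and 98.8 at HH38. NR2E1, a nuclear receptor of forebrain and retina, went from 1332 at HH24 to 123.2 at HH38, and MAB21L2, of eye and limb, from 1381 at HH27 to 243.8. TAGLN3, a neuronal transgelin, had a mean of 3381 at HH27 and 717.5 at HH38.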
